A study of Mus musculus with 21 samples.

Results

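The genes described here are 9 genes of protein cross-linking, blood clotting and clot removal in sorted inflammatory monocytes (IMs) of mice: Tgm2, F13a1, F3, F7, F10, Plau, Plaur, Serpinb2 and Thbs1. They were found by symbol among the 23420 genes of the deposited count table, and all 9 were present. The list was drawn up with results of these libraries in view, so that the values of tumor IMs (TIMs) against bone marrow (BM) IMs are given as a description: values and threshold calls are shown, and nothing is read from the calls. The study compared TIMs, sorted as CD45+ CD11b+ Ly6C hi Ly6G- SiglecF- cells after enrichment with a monocyte kit, with IMs of the same gate from the BM of naive, tumor-free mice. BM IMs came from untreated FVB mice (n = 3) and untreated DBA2 mice (n = 3). In the LN2E1 model, 500000 KAL-LN2-E1 cells, a mouse lung squamous carcinoma (LUSC) line selected by passage in vivo from the line KAL, were placed in the lungs of FVB mice, and TIMs were taken from the primary tumors (n = 5) and from lymph node metastases (n = 5). In the LN4K1 model, 300000 LN4K1 cells, a line derived from KLN-205, were injected intravenously into DBA2 mice, and TIMs were taken from the lungs (n = 5). Each model thus rests on a single cell line, and strain, cell line, route and tissue changed together between the models and cannot be told apart. The study used adult mice of both sexes and gives an age range for its animals as a whole. The age and sex behind a given library were not given in the sources used here, nor whether the libraries of a group came from separate animals. The study's methods call the replicates technical, so that SDs and p-values measure only the spread between these libraries.

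Coagulation is started when tissue factor on a cell surface binds factor VII, and this complex activates factor X, which with its cofactor makes thrombin and then fibrin. Fibrin is stabilised by factor XIII, a transglutaminase that joins glutamine to lysine side chains, and it is dissolved by plasmin, which urokinase makes from plasminogen at its receptor on the cell. Monocytes and macrophages are known sources of tissue factor, of the factor XIII A subunit, of urokinase and its receptor, and of the matrix glycoprotein thrombospondin 1.

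RefSeq promoter sequences (build GRCm38.p6) were at hand for 6 of the 9 genes, and 4 of them are shown, as the 250 bases before the annotated start on the gene's strand, 5′ to 3′. F3, Plaur and Serpinb2 are shown because their levels in primary tumor TIMs did not overlap those in FVB BM IMs and because they hold the letters of an AP-1 site, and F10 because its levels overlapped. Capitals mark TGANTCA, read on both strands, of which there were 2 in F3, starting 146 and 135 bases before the start, 1 in Plaur, 69 bases before, and 1 in Serpinb2, 94 bases before. The motif was chosen after the sequences were seen. F3 lies at chr3:121723287-121723536 (+), Plaur at chr7:24462233-24462482 (+), Serpinb2 at chr1:107511173-107511422 (+) and F10 at chr8:13037058-13037307 (+).
F3: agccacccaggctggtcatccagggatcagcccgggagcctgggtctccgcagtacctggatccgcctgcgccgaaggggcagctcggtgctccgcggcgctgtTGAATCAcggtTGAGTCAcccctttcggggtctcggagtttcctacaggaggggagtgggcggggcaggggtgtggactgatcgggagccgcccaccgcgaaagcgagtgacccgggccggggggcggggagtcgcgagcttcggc
Plaur: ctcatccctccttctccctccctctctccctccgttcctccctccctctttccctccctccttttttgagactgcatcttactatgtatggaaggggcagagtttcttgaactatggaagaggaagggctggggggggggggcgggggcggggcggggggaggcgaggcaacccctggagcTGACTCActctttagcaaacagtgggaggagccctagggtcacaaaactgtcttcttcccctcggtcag
Serpinb2: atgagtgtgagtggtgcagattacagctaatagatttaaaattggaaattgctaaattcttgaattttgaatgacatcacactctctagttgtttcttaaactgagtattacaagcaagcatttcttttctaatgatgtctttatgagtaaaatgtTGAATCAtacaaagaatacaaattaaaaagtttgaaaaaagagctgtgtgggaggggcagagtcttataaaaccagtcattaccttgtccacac
F10: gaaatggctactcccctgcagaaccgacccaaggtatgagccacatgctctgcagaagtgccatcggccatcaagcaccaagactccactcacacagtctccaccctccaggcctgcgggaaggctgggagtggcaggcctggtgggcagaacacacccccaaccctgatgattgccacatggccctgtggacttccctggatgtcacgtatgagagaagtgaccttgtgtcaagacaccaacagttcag
The letters TGANTCA stood in 3 of the 6 promoters and in 6.75% of 32851 RefSeq promoters of the same length (2217). F13a1, F7 and F10 had none in this window. F7 had none although its levels in primary tumor TIMs did not overlap those in FVB BM IMs (means of 7.31 and 3.82 CPM). Levels of Tgm2 and Thbs1 did not overlap either, and no promoter of these was at hand. A relation between the letters and the levels was not tested. The Serpinb2 promoter also held TATAAA, starting 29 bases before the start, letters that 12.4% of all promoters held. TGACGTCA, the CRE letters, and the NF-kB motif were found in none of the 6, against 1.55% and 7.25% of all promoters. A match of letters is a description of the sequence and not a binding site.

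Total counts per library lay between 80772922 and 101043568. Levels are given as CPM, that is counts relative to library size, with edgeR's TMM factors, and the level of 1 gene is set against that of another only after division by exon length (CPM per kb). A gene with no count could have had up to 3 counts, a limit that covers counting error only. LN4K1 lung TIM replicate 3 correlated least with its own group (r = 0.884 to 0.936 in log2 CPM over 8016 genes), as did lymph node TIM replicate 1 (r = 0.880 to 0.897), and results are given without these libraries where they depend on them. The labels give no sequencing batch. The summed level of 5 monocyte genes was 36094 to 123562 CPM in every library. Most of this was Lyz2, with group means of 34248 to 75541 CPM. Group means of Csf1r and Ccr2 were 795 to 2857 and 718 to 2649 CPM. Those of Fcgr1 and Cd14 were 15.7 to 459 and 454 to 4875 CPM, higher in every TIM group than in marrow. The 4 sort genes in the table (Ptprc, Itgam, Ly6c1 and Ly6c2) summed to 3434 to 5442 CPM, whereas Ly6g and Siglecf were not analysed here.

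Markers of other cells differed between the groups. Across 10 platelet and megakaryocyte genes the sum was 30.0 to 185 CPM in FVB BM IMs and 0.861 to 66.2 CPM in DBA2 BM IMs, with all 10 genes above the limit of a 0 count in both. In TIMs it was 3.45 to 11.1 CPM in primary tumors (9 of 10 genes), 2.65 to 6.43 CPM in lymph nodes (5 of 10) and 4.21 to 21.8 CPM in LN4K1 lungs (10 of 10). Primary tumor TIMs held the most fibroblast and lung epithelial RNA. The 7 fibroblast genes summed to 380 to 1132 CPM there, against 12.2 to 107 CPM in lymph node TIMs, 1.81 to 42.7 CPM in LN4K1 lung TIMs and at most 9.24 CPM in BM IMs. The 5 lung epithelial genes summed to 137 to 876 CPM in primary tumor TIMs, 7.34 to 102 CPM in LN4K1 lung TIMs, and at most 0.981 CPM in lymph node TIMs and 2.60 CPM in BM IMs. Endothelial genes summed to 51.9 to 71.1 CPM in primary tumors and 55.5 to 110 CPM in lymph nodes, but to at most 16.3 CPM elsewhere. Pecam1 made up most of this, with means of 49.0 and 75.3 CPM, whereas Tek and Emcn had no count in lymph node TIMs and means of 0.0861 and 0.15 CPM in primary tumors. Squamous epithelial genes reached 79.1 CPM in primary tumors, 140 CPM in lymph nodes and 37.2 CPM in LN4K1 lungs. Most of this was Cdh1, with means of 52.5, 62.4 and 22.0 CPM, whereas Krt5, Krt14, Krt6a and Trp63 had group means of at most 0.507 CPM. Hepatocyte genes, markers of the liver cells that make most clotting factors, summed to at most 0.526 CPM in any library, and albumin (Alb) lay at or under the limit in every group but DBA2 BM IMs. Mature neutrophil genes summed to 219 to 1540 CPM, alveolar macrophage genes to 4.56 to 76.8 CPM and resident peritoneal macrophage genes to 24.3 to 55.6 CPM over all libraries. The parts of these cells in the results were not tested.

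**Figure D1:**
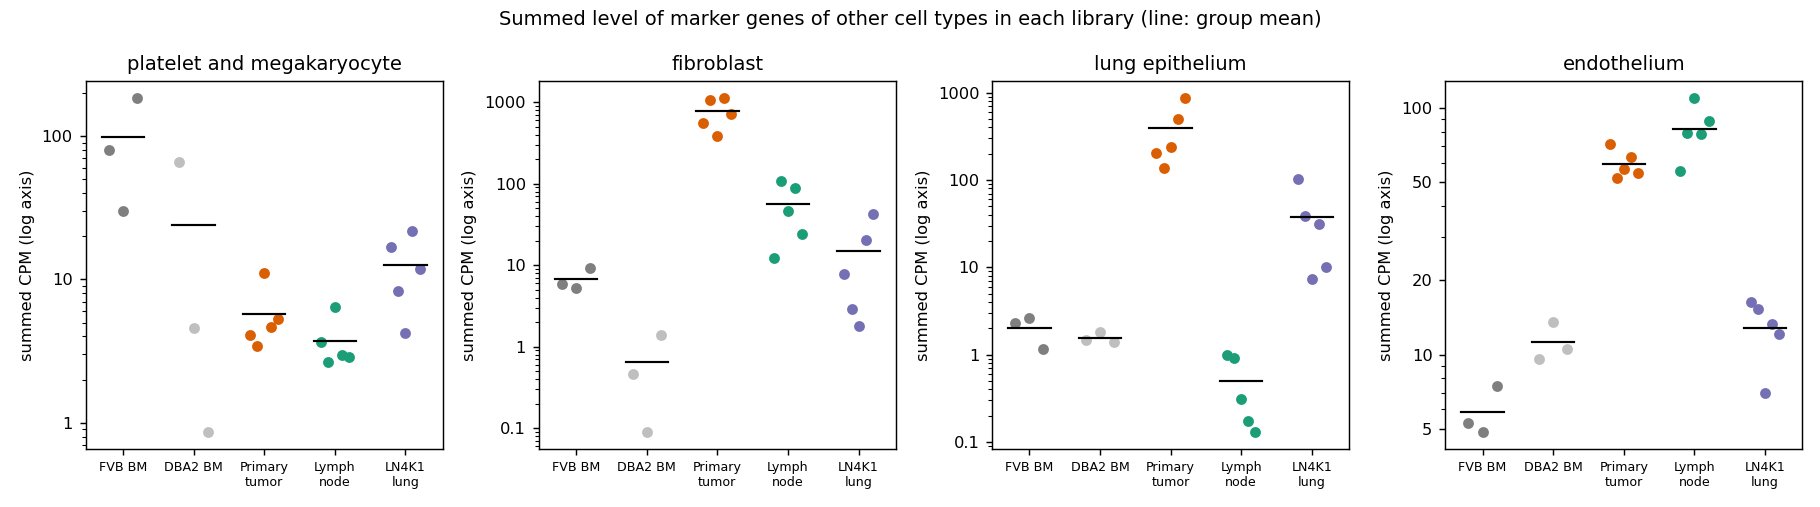
Summed CPM (log axis) of marker genes of platelets and megakaryocytes, fibroblasts, lung epithelium and endothelium in each of the 21 libraries, with a line at each group mean. Platelet markers were highest in FVB BM IMs, at 30.0 to 185 CPM, with 66.2 CPM in DBA2 BM IM replicate 1 and 4.57 and 0.861 CPM in the other two, and fibroblast markers in primary tumor TIMs, at 380 to 1132 CPM.

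The members fell into a set of high and a set of low levels. Per kb of exon, F13a1 ranked 46th of 19347 genes in FVB BM IMs and 34th in DBA2 BM IMs, and it stayed within the first 169 in every TIM group. Plaur ranked 152nd and 130th in the marrow groups and 71st, 39th and 81st in primary tumor, lymph node and LN4K1 lung TIMs. Thbs1 ranked 828th and 644th in marrow, 59th in primary tumor TIMs, 132nd in lymph node TIMs and 1038th in LN4K1 lung TIMs. For Tgm2 the ranks went from 8923rd and 10068th in marrow to 133rd, 228th and 928th in TIMs. F10 kept a middle place throughout, between 711th and 1065th. F3, F7, Plau and Serpinb2 ranked no higher than 6060th in any group.

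**Figure D2:**
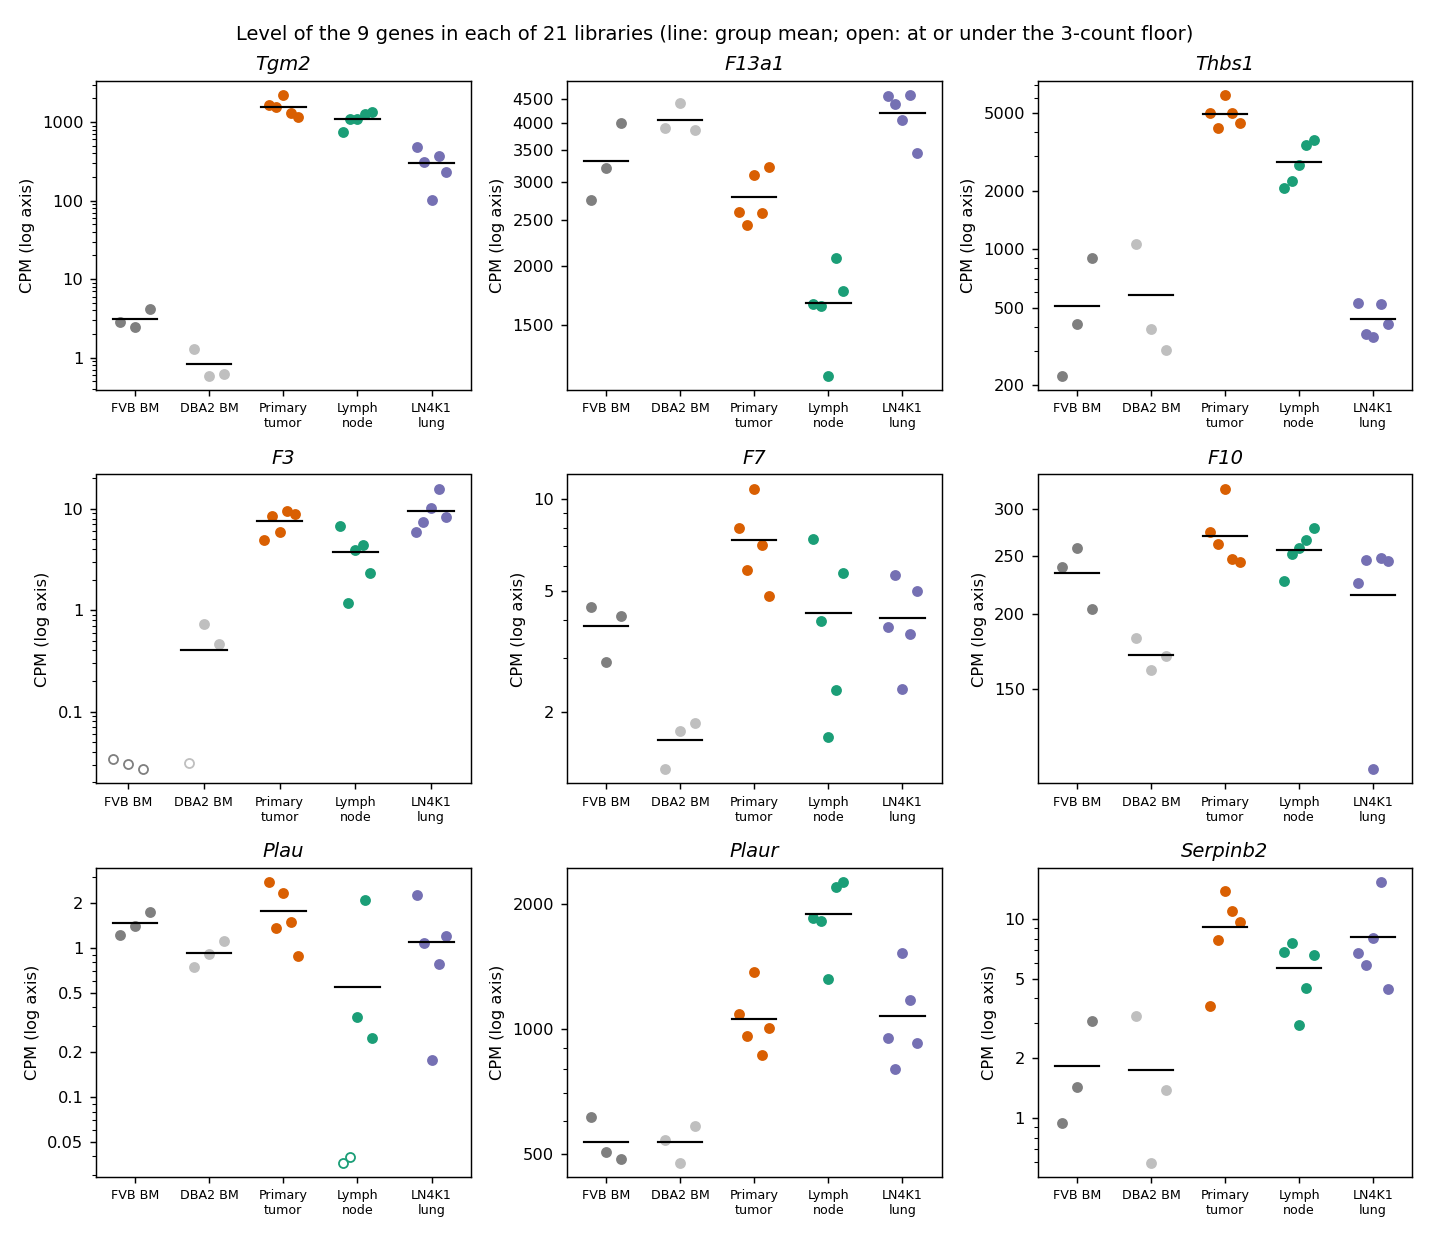
CPM (log axis) of each of the 9 genes in every library of the 5 groups, with a line at each group mean and open symbols at the limit where a library had 3 counts or fewer. Tgm2 lay at 102 to 2206 CPM in TIMs and at most 4.16 CPM in BM IMs, whereas the groups overlapped for F10 in FVB mice and for Plau.

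Among the transglutaminases, Tgm2 was nearly silent in marrow and abundant in TIMs, while F13a1 was abundant in both. Tgm2 encodes tissue transglutaminase, which cross-links proteins of the matrix and of the cell. Its levels were 2.81, 2.43 and 4.16 CPM in FVB BM IM replicates 1 to 3, and 1.30, 0.588 and 0.617 CPM in those of DBA2 mice. Primary tumor TIM replicates 1 to 5 held 1655, 1553, 2206, 1317 and 1149 CPM, and lymph node TIMs 753, 1082, 1084, 1269 and 1354 CPM. In LN4K1 lung TIMs the levels were 476, 314, 102, 375 and 229 CPM. Each TIM library thus lay above each BM IM library, and the LN4K1 lung libraries below all LN2E1 libraries. The ratios of group means to BM IMs of the same strain were 503, 354 and 359, and the fitted log2 fold changes 8.95 (SE 0.36), 8.47 (SE 0.33) and 8.43 (SE 0.68). No difference in this change was detected between the models: it was 0.54 (SE 0.58) on the log2 scale for primary tumors minus LN4K1 lungs, with an adjusted p of 0.538 by edgeR's quasi-likelihood test, and 0.01 (SE 0.63, adjusted p = 1) for lymph nodes minus LN4K1 lungs. Tgm2 is on the reverse strand of chromosome 2 (GRCm38, from 158116402 to 158146436), and its exons overlap those of Rprd1b on the opposite strand, which had group means of 29.6 to 39.7 CPM in marrow and tumors alike.

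F13a1, which encodes the A subunit of factor XIII, lies on chromosome 13 from 36867178 to 37050244 on the reverse strand. It was present at 2759, 3209 and 4002 CPM in FVB BM IMs and at 3899, 4412 and 3861 CPM in DBA2 BM IMs. Primary tumor TIMs held 2593, 2434, 3109, 2579 and 3227 CPM and overlapped the marrow. Lymph node TIMs held 1661, 1650, 1174, 2078 and 1774 CPM, below every other library of the series. LN4K1 lung TIMs held 4558, 4386, 4052, 4579 and 3455 CPM and overlapped DBA2 marrow. The log2 fold change was -0.27 (SE 0.15) in primary tumors, -0.99 (SE 0.18) in lymph nodes and -0.01 (SE 0.13) in LN4K1 lungs. Exons of F13a1 overlap those of Gm30489 on the opposite strand, and reads without strand could not separate them.

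Of the genes that start coagulation, F3 separated tumor from marrow, F7 did so only in part, and F10 hardly differed in the fits of all libraries. F3, on chromosome 3 from 121723537 to 121735048 on the forward strand, encodes tissue factor. It had no count in any of the 3 FVB BM IM libraries and 3, 73 and 44 counts in the DBA2 BM IM libraries, or 0.0311, 0.727 and 0.468 CPM. Primary tumor TIMs held 4.86, 8.38, 5.86, 9.44 and 8.92 CPM. Lymph node TIMs held 6.72, 1.18, 3.88, 4.41 and 2.33 CPM, and the levels were 5.93, 7.47, 10.1, 15.8 and 8.37 CPM in LN4K1 lung TIMs. All 15 TIM libraries were thus above all 6 marrow libraries, at a low level for all TIM groups. Against the limit of 3 counts per library, which averaged 0.0306 CPM in FVB BM IMs, the mean was at least 245-fold higher in primary tumor TIMs and at least 121-fold higher in lymph node TIMs. The ratio of means in LN4K1 lungs was 23.3, with a log2 fold change of 4.47 (SE 0.80).

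F7 and F10, for factors VII and X, are neighbours on chromosome 8, with F7 from 13026034 to 13035809 and F10 from 13037308 to 13056676, both on the forward strand, 1498 bases apart and with no annotated gene between them. They share no exon. F7 was low, at 4.42, 2.92 and 4.12 CPM in FVB BM IMs and 1.30, 1.74 and 1.84 CPM in DBA2 BM IMs. Primary tumor TIMs held 8.02, 5.85, 10.8, 7.03 and 4.79 CPM, lymph node TIMs 7.38, 3.99, 1.66, 2.36 and 5.70 CPM and LN4K1 lung TIMs 3.80, 5.61, 2.38, 3.61 and 4.98 CPM. Primary tumor and LN4K1 lung TIMs lay above the marrow of their strain, with log2 fold changes of 0.92 (SE 0.29) and 1.27 (SE 0.35), while lymph node TIMs spread on both sides of it, with 0.15 (SE 0.55).

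F10 was present at a higher level per kb than its neighbour in every group (63.5 to 100 CPM per kb on average, against 0.875 to 3.93), and its group means, from 171 to 270 CPM, had the smallest ratio of highest to lowest among the 9 members. It had 240, 258 and 204 CPM in FVB BM IMs, 182, 161 and 170 CPM in DBA2 BM IMs, 274, 262, 324, 247 and 244 CPM in primary tumor TIMs. Lymph node TIMs were alike, with 227, 252, 258, 266 and 278 CPM. In LN4K1 lung TIMs the levels were 225, 246, 110, 248 and 245 CPM, where replicate 3 stood below all other libraries. TIMs and FVB BM IMs overlapped, with log2 fold changes of 0.20 (SE 0.12) and 0.14 (SE 0.12). In LN4K1 lungs the value was 0.27 (SE 0.25), and 0.44 (SE 0.08) without replicate 3, with an adjusted p of 0.0024 by edgeR. The other LN4K1 lung libraries, at 225 to 248 CPM, lay above all DBA2 BM IM libraries, at 161 to 182 CPM.

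In the plasminogen system, the receptor and the inhibitor were higher in TIMs and the protease was not. Plaur, on chromosome 7 from 24462484 to 24475968 on the forward strand, encodes the urokinase receptor. It had 612, 504 and 485 CPM in FVB BM IMs and 539, 476 and 584 CPM in DBA2 BM IMs. Primary tumor TIMs held 1090, 962, 1372, 865 and 1008 CPM, lymph node TIMs 1854, 1821, 1319, 2196 and 2264 CPM and LN4K1 lung TIMs 954, 802, 1527, 1176 and 926 CPM. No TIM library reached down to a marrow library, and the highest levels were in lymph nodes. The ratios of means were 1.99, 3.54 and 2.02, and the log2 fold changes 0.98 (SE 0.15), 1.83 (SE 0.19) and 0.95 (SE 0.21).

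Plau, which encodes urokinase and lies on chromosome 14 from 20836660 to 20843385 on the forward strand, was scarce everywhere. It had 1.23, 1.41 and 1.75 CPM in FVB BM IMs, 0.746, 0.916 and 1.12 CPM in DBA2 BM IMs and 2.77, 1.37, 2.35, 1.49 and 0.882 CPM in primary tumor TIMs. Lymph node TIMs held 0.0121, 0.0396, 0.343, 2.09 and 0.249 CPM, which is 1, 3, 29, 169 and 21 counts, so that 4 of 5 libraries lay below all marrow libraries and replicate 4 above them. LN4K1 lung TIMs held 2.28, 1.08, 0.176, 0.779 and 1.2 CPM and overlapped DBA2 marrow. The log2 fold changes were 0.26 (SE 0.42), -1.42 (SE 1.35) and 0.19 (SE 0.71). Without lymph node replicate 4 the value there was -3.16 (SE 1.22).

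Serpinb2, for plasminogen activator inhibitor 2, which blocks urokinase, lies on chromosome 1 from 107511423 to 107535478 on the forward strand. Its levels were 0.948, 1.44 and 3.08 CPM in FVB BM IMs and 3.26, 0.598 and 1.38 CPM in DBA2 BM IMs. In primary tumor TIMs they were 3.65, 7.85, 13.8, 11 and 9.66 CPM. Lymph node TIMs held 6.86, 7.58, 2.95, 4.49 and 6.64 CPM, and the levels were 6.81, 5.92, 8.04, 15.4 and 4.48 CPM in LN4K1 lung TIMs. Only lymph node replicate 3 reached into the marrow range. The log2 fold changes were 2.31 (SE 0.51), 1.65 (SE 0.55) and 2.17 (SE 0.60). Exons of Serpinb2 overlap those of Serpinb10 on the same strand, which was at 380 ± 95.1 CPM (SD, n = 5) in LN4K1 lung TIMs, at 127 ± 10.1 CPM (n = 3) in DBA2 BM IMs and at 42.4 to 61.5 CPM in the FVB groups, so that reads on shared exons could not be assigned with certainty.

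Thbs1 was higher in TIMs than in marrow in the LN2E1 model and not in the LN4K1 model. It encodes thrombospondin 1, a matrix glycoprotein that platelets store and that can activate latent TGF-beta, and it lies on chromosome 2 from 118111876 to 118127133 on the forward strand, with exons that overlap Gm29233 on the opposite strand. FVB BM IMs held 224, 415 and 902 CPM and DBA2 BM IMs 1063, 388 and 302 CPM, a wide spread in both. Primary tumor TIMs held 4994, 4190, 6191, 5012 and 4446 CPM, and lymph node TIMs 2051, 2231, 2701, 3431 and 3621 CPM, all above the marrow. LN4K1 lung TIMs held 528, 369, 354, 523 and 412 CPM, inside the range of DBA2 marrow. The ratios of means were 9.67, 5.47 and 0.748, and the log2 fold changes 3.25 (SE 0.43), 2.45 (SE 0.43) and -0.48 (SE 0.36). In each marrow group, the library with the highest Thbs1 level was also the one with the most platelet RNA: FVB replicate 3 (902 CPM beside a platelet sum of 185 CPM) and DBA2 replicate 1 (1063 CPM beside 66.2 CPM). These libraries also had the highest Serpinb2 and Tgm2 levels of their group. Without FVB replicate 3 the Thbs1 log2 fold changes were 3.96 (SE 0.29) in primary tumors and 3.15 (SE 0.35) in lymph nodes, and without DBA2 replicate 1 that in LN4K1 lungs was 0.28 (SE 0.21), with its sign turned. The part of platelet RNA in these values was not tested.

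**Figure D3:**
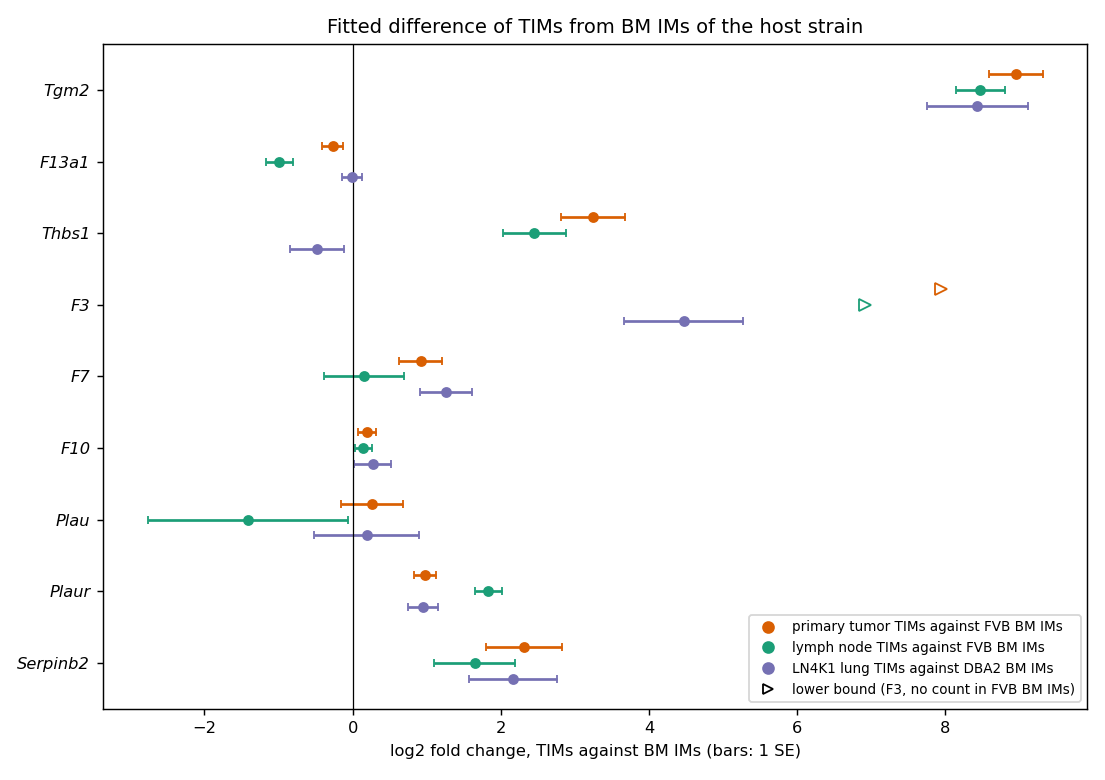
Fitted log2 fold change of TIMs against BM IMs of the host strain (horizontal axis, bars 1 SE) for the 9 genes in primary tumors, lymph nodes and LN4K1 lungs, with open arrows for the lower bounds of F3 in FVB mice. Tgm2 stood at 8.43 to 8.95 in all tissues, whereas Thbs1 was at 3.25 and 2.45 in the LN2E1 model and at -0.48 in the LN4K1 model.

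The study's thresholds for a differentially expressed gene (DEG) were 0.0001 for the adjusted p and 1 for the absolute log2 fold change. They were applied to DESeq2 with shrunken fold changes. That setting called 5, 4 and 2 members here in primary tumors, lymph nodes and LN4K1 lungs. Of all genes it called 4004 of 18477, 2402 of 16745 and 1563 of 17400. By the same thresholds in edgeR's fit, Tgm2 and F3 passed in primary tumors, Tgm2 and Plaur in lymph nodes and Tgm2 in LN4K1 lungs. All 5 calls were higher in TIMs. Of all genes tested, 12.9% passed in primary tumors (7.72% higher and 5.18% lower), 5.71% in lymph nodes (4.01% and 1.70%) and 2.97% in LN4K1 lungs (1.21% and 1.76%). At an adjusted p under 0.05 alone, 6, 6 and 5 of the 9 members passed, all higher in TIMs but F13a1 in lymph nodes. Of all genes, 61.9% passed in primary tumors (33.3% higher and 28.6% lower), 37.4% in lymph nodes (20.2% and 17.2%) and 24.9% in LN4K1 lungs (13.9% and 11%). Levels did not overlap between TIMs and BM IMs for 6, 5 and 5 members, against 57.9%, 42.9% and 34.3% of all genes. The median log2 fold change of the members was 0.98, 1.65 and 0.95, against 0.08, -0.04 and 0.03 over all genes tested. Since the list was drawn up with these comparisons known, nothing is read from these counts. The comparisons of primary tumors and lymph nodes also share the FVB BM IM libraries. The DEG call of Tgm2 in LN4K1 lungs ended when any single DBA2 BM IM library was left out and without LN4K1 lung replicate 2, 4 or 5, at log2 fold changes of 8.20 to 8.89. That of Plaur in lymph nodes ended when any single FVB BM IM library was left out and without lymph node replicate 2, 4 or 5, at 1.76 to 1.94. Thbs1 became a DEG in primary tumors without FVB BM IM replicate 3.

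Within the LN2E1 model, lymph node TIMs were compared with primary tumor TIMs, which share strain, cell line and injection and differ in tissue. Fold changes of both against FVB BM IMs were known when the list was drawn up. The p-values of this comparison are thus not independent evidence. Plaur was higher in lymph nodes, and F13a1 and Thbs1 were lower. Plaur rose by 0.85 on the log2 scale (SE 0.16), with an adjusted p of 0.00618 by edgeR's quasi-likelihood test, adjusted by Benjamini and Hochberg's method over 13488 genes, and it was higher in 4 of 5 lymph node libraries than in any primary tumor library. F13a1 fell by 0.73 (SE 0.14, adjusted p = 0.0075 in the same edgeR fit), and all 5 lymph node libraries lay below all 5 primary tumor libraries. Thbs1 fell by 0.81 (SE 0.17, adjusted p = 0.0109 by edgeR), again without overlap, but its call ended with all 5 groups in 1 fit (adjusted p = 0.0905 by edgeR). The calls of Plaur and F13a1 ended with the replicate number as a block (adjusted p = 0.0627 and 0.0529 by edgeR). These 3 of 9 members were called, against 11.7% of all genes tested (6.15% higher and 5.55% lower), and 2 of 9 members were without overlap, against 14.4%.

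The other 6 members did not pass this test. Tgm2 had 1576 ± 404 CPM (SD, n = 5) in primary tumors and 1108 ± 231 CPM (n = 5) in lymph nodes, a log2 difference of -0.49 (SE 0.19, adjusted p = 0.122 by edgeR). F3 had -1.0 (SE 0.42, adjusted p = 0.159 by edgeR) and passed only without lymph node replicate 1, with -1.33 (adjusted p = 0.0378 by edgeR). Plau had -1.68 (SE 1.09, adjusted p = 0.369 by edgeR) and passed only without lymph node replicate 4, its high library, with -3.43 (adjusted p = 0.0448 by edgeR). F7, Serpinb2 and F10 had -0.78, -0.68 and -0.06. All 9 members except Plaur thus had a negative fitted value, with a median of -0.73 against -0.03 over all genes. Beside these differences, fibroblast and lung epithelial marker sums were lower in lymph node TIMs than in any primary tumor library. The alveolar macrophage sum was higher in each lymph node library (32.8 to 76.8 CPM) than in any primary tumor library (12.4 to 24.3 CPM). Most of it was Pparg and Fabp4, with means of 27.0 and 15.6 CPM in lymph nodes and 12.3 and 5.84 CPM in primary tumors. Marco had means of 6.45 and 2.52 CPM. Car4 and Krt79 went the other way, at or under the limit in lymph nodes and at 0.212 and 0.0602 CPM in primary tumors. The part of these cells was not tested. In bulk samples of sorted cells, fewer cells of a kind and less RNA per cell cannot be told apart.

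Between the strains, 3 of the 8 members tested differed in naive marrow, and these were lower in DBA2 mice. Here too the members were chosen with earlier results of these data known, so that the p-values are not independent evidence. Tgm2 was at 0.833 ± 0.401 CPM (SD, n = 3) in DBA2 and 3.13 ± 0.912 CPM (n = 3) in FVB BM IMs, a log2 difference of -1.89 (SE 0.46, adjusted p = 0.0228 by edgeR). F7 was at 1.63 ± 0.290 and 3.82 ± 0.796 CPM, with -1.21 (SE 0.32, adjusted p = 0.0308 by edgeR). F10 was at 171 ± 10.9 and 234 ± 27.4 CPM, with -0.42 (SE 0.10, adjusted p = 0.0253 by edgeR). Of all genes tested, 21.1% were called in this comparison (11.5% higher and 9.57% lower). Levels of the strains did not overlap for 5 of 9 members, against 42.1% of all genes. F3 is among the 5, although DBA2 BM IM replicate 1, with 3 counts, lay at the limit of a 0 count. These calls were fragile: edgeR called none of the members without FVB BM IM replicate 1 or 2 or without DBA2 BM IM replicate 2 or 3. In those edgeR fits 3 or 4 members had an unadjusted p under 0.05, as had 3583 to 3814 of all 13266 to 13310 genes tested. The call of F7 also ended without DBA2 BM IM replicate 1. F13a1 passed only without FVB BM IM replicate 3, where it was higher in DBA2 mice by 0.48 on the log2 scale. F3, with no count in FVB and 3 to 73 counts in DBA2 BM IMs, did not pass the filter on low counts. With a filter of 1 count in total, with all 5 groups in 1 fit and with DESeq2, F3 was tested and called higher in DBA2 mice. So it was by edgeR without FVB BM IM replicate 3 or DBA2 BM IM replicate 1. Without FVB BM IM replicate 1 or 2 it was tested and not called. With all 5 groups in 1 fit the calls of F7 and F10 ended, and Tgm2 and F3 were called. Plaur, at 533 ± 68.8 and 533 ± 54.1 CPM, had a difference of 0.02 (SE 0.12, adjusted p = 0.908 by edgeR), and the libraries of the strains overlapped for Serpinb2 and Thbs1. Those of Plau did not overlap, but its difference of -0.64 (SE 0.44, adjusted p = 0.331 by edgeR) did not pass.

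**Figure D4:**
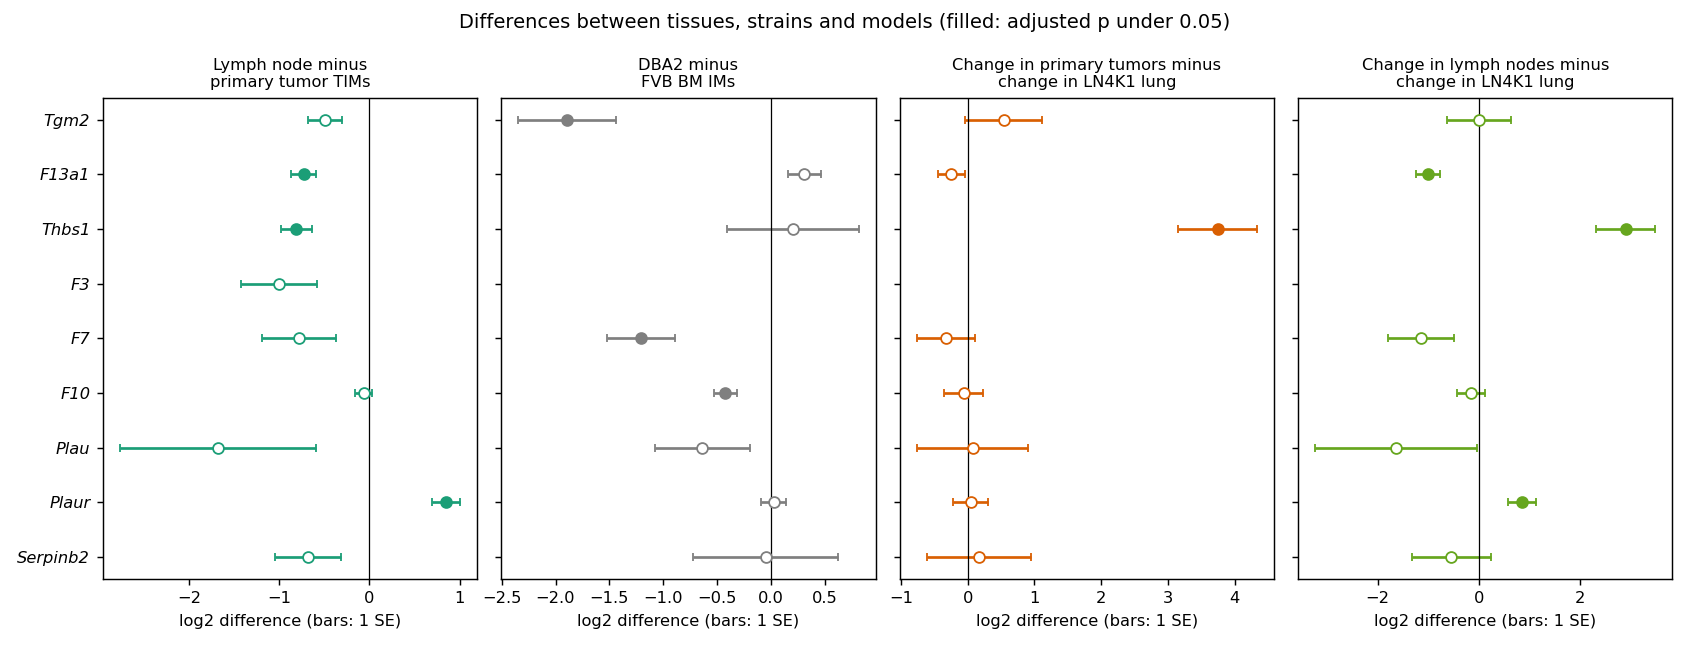
Log2 difference (horizontal axes, bars 1 SE) of each gene between lymph node and primary tumor TIMs, between DBA2 and FVB BM IMs, and between the change in either LN2E1 tissue and the change in LN4K1 lungs, with filled symbols for an adjusted p under 0.05 and F3 left out where it rests on FVB BM IMs without a count. Thbs1 had the largest differences between the models, at 3.75 and 2.91.

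The change from marrow to tumor was compared between the models by an interaction term, the difference of the log2 fold changes. Since those fold changes were known when the list was drawn up, the p-values of these terms are not independent evidence. Thbs1 differed in both LN2E1 tissues, by 3.75 (SE 0.59, adjusted p = 0.00068 by edgeR) in primary tumors and 2.91 (SE 0.59, adjusted p = 0.0039 by edgeR) in lymph nodes against LN4K1 lungs. Both terms passed whichever of the 16 libraries was left out, with 2.99 to 4.45 and 2.15 to 3.60. The difference lay in the TIMs: LN4K1 lung TIMs had 437 ± 83.4 CPM (n = 5), against 4967 ± 771 CPM (n = 5) and 2807 ± 701 CPM (n = 5) in the LN2E1 tissues, whereas marrow had 585 ± 417 CPM in DBA2 and 513 ± 349 CPM in FVB mice (n = 3 each).

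F3 also differed, with adjusted p-values of 0.00272 for primary tumors and 0.0114 for lymph nodes by edgeR. Here the marrow means differed, with 0.409 CPM in DBA2 BM IMs, and the TIM libraries overlapped. DBA2 BM IM replicate 1, with 3 counts, lay at the limit of a 0 count. FVB BM IMs had no count, so that the fitted size of the term depends on the prior count and is no measure of the change. The TIM levels of F3 were 7.49 ± 2.01 CPM (n = 5) in primary tumors and 9.53 ± 3.80 CPM (n = 5) in LN4K1 lungs, and the libraries overlapped. F13a1 differed for lymph nodes, where the change was lower by 1.0 on the log2 scale (SE 0.24, adjusted p = 0.00976 by edgeR), and it passed whichever library was left out. For primary tumors the F13a1 term was -0.24 (SE 0.20, adjusted p = 0.404 by edgeR). Plaur differed for lymph nodes by 0.86 (SE 0.27, adjusted p = 0.0432 by edgeR), a call that ended in 13 of the 16 fits without 1 library, in all but those without LN4K1 lung replicate 3 or lymph node replicate 1 or 3. For primary tumors the Plaur term was 0.04 (SE 0.26, adjusted p = 0.954 by edgeR). In all, 2 of 9 members were called for primary tumors and 4 of 9 for lymph nodes, against 26.5% (13.2% higher and 13.3% lower) and 15.4% (8.14% and 7.25%) of all genes. The terms for the other 5 members had adjusted p-values of 0.269 or more by edgeR, and both terms share the DBA2 and LN4K1 libraries.

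The other genes of these pathways were taken from a list of 59 genes in 7 roles, drawn up with earlier results of these data known. Their shares and p-values are thus a description. In primary tumors 12 of the 40 tested were DEGs, 10 of them higher in TIMs, in lymph nodes 5 of 33, 4 of them higher, and in LN4K1 lungs 2 of 34, 1 of them higher. These are 30.0%, 15.2% and 5.88%, against the 12.9%, 5.71% and 2.97% of all genes given above. Leaving out 1 library gave 9 to 13 DEGs of the list in primary tumors, 2 to 6 in lymph nodes and 0 to 6 in LN4K1 lungs. Without LN4K1 lung replicate 3 there were 6 of 34. DESeq2 with shrunken fold changes gave 17 of 49, 10 of 47 and 13 of 49, so that the order of the tissues depends on the setting. The clade B serpins, relatives of Serpinb2 that block proteases inside cells, had DEGs in each tissue. Serpinb8 rose in all comparisons: FVB BM IMs held 4.11 ± 1.54 CPM (n = 3), primary tumors 43.0 ± 7.74 CPM and lymph nodes 30.7 ± 3.68 CPM (n = 5 each), while DBA2 BM IMs held 6.0 ± 0.309 CPM (n = 3) and LN4K1 lungs 38.9 ± 6.72 CPM (n = 5). Serpinb1a, an inhibitor of neutrophil proteases, fell in all comparisons, from 174 ± 8.70 to 31.1 ± 6.15 and 25.4 ± 5.09 CPM in FVB mice and from 121 ± 7.48 to 41.2 ± 8.06 CPM in DBA2 mice. The neutrophil markers Camp, Ltf and Retnlg also had lower means in TIMs, while Mmp8 and Cxcr2 did not fall throughout. The part of neutrophil RNA was not tested. Serpinb9 was a DEG in primary tumors only, rising from 2.58 to 19.1 CPM on average. Its means were also higher in lymph nodes, at 11.3 CPM (0.0121 to 16.0 CPM), and in LN4K1 lungs, at 7.88 CPM against 1.82 CPM in DBA2 marrow.

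Among clotting factors and cofactors, F5, for factor V, the cofactor of factor X, rose in both LN2E1 tissues, from 21.7 ± 2.82 CPM (n = 3) to 56.6 ± 5.57 CPM (n = 5) and 69.3 ± 11.8 CPM (n = 5). DBA2 BM IMs already had 56.8 ± 8.75 CPM of F5, a strain difference of 1.41 on the log2 scale (SE 0.16, adjusted p = 0.00109 by edgeR), and LN4K1 lung TIMs had 70.5 ± 7.96 CPM. Vkorc1, which recycles vitamin K for the clotting factors, fell in primary tumors. Of the 14 genes of this role only 4 or 5 passed the filter on low counts in these comparisons.

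In fibrinolysis, Lrp1, an endocytic receptor that clears protease and inhibitor complexes, rose from 87.1 ± 23.3 CPM (n = 3) to 358 ± 19.4 CPM in primary tumors and 412 ± 91.4 CPM in lymph nodes (n = 5 each), and Plat, for tissue plasminogen activator, rose in primary tumors, with 17.8 CPM on average there and 0.917 and 1.69 CPM in lymph node and LN4K1 lung TIMs. In LN4K1 lungs Lrp1 had a log2 fold change of 1.33 (SE 0.14) and an adjusted p of 0.00012 by edgeR, just outside the threshold. Cd36, a receptor of thrombospondin 1, rose from 4.82 ± 1.11 CPM (n = 3) to 102 ± 33.0 CPM in primary tumors and 325 ± 79.7 CPM in lymph nodes (n = 5 each), and Thbs2 rose in primary tumors, with 36.5 CPM on average there and 1.1 and 0.00733 CPM in lymph node and LN4K1 lung TIMs. Plat and Thbs2 were thus highest where the fibroblast sum was highest (380 to 1132 CPM in primary tumors, against at most 107 CPM elsewhere), and its part was not tested. Cd36 was higher in lymph node than in primary tumor TIMs by 1.68 on the log2 scale (SE 0.24, adjusted p = 0.00196 by edgeR), where its ligand Thbs1 was lower. LN4K1 lung TIMs held 20.7 CPM of Cd36 on average, against 4.3 CPM in DBA2 marrow, without passing as a DEG.

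Tgm1, a transglutaminase known from the cornified layer of the skin, rose in primary tumors from 3.06 ± 0.249 CPM (n = 3) to 30.3 ± 7.53 CPM (n = 5), and it was lower in lymph nodes than in primary tumors by 1.11 on the log2 scale (adjusted p = 0.0349 by edgeR). Lymph node TIMs held 13.9 CPM on average and LN4K1 lung TIMs 19.6 CPM, against 3.34 CPM in DBA2 marrow, but Tgm1 was no DEG there. Pros1 and Procr, of the anticoagulant protein C system, were DEGs in primary tumors only, but their means were higher in every TIM group than in marrow. Pros1 had 68.4 CPM in FVB BM IMs, 154 CPM in primary tumors and 195 CPM in lymph nodes. In DBA2 BM IMs it had 54.8 CPM and in LN4K1 lungs 160 CPM. Procr had 1.35, 9.22, 4.75, 0.143 and 3.89 CPM in the same order. Of the 4 thrombin receptors, 4, 3 and 2 were tested in primary tumors, lymph nodes and LN4K1 lungs, and none of those was a DEG. F2r had a log2 fold change of 4.68 (SE 0.65) and an adjusted p of 0.000221 by edgeR in primary tumors, outside the threshold.

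Lymph node and primary tumor TIMs differed for 8 of 33 genes of the list (24.2%, against 11.7% of all genes): Serpinb10, Cd47, Plgrkt and Cd36 were higher in lymph nodes, and Serpinb8, Tgm1, Thbs2 and Plat were lower. This count was fragile, at 3 to 12 in edgeR's fits without 1 library. Without primary tumor replicate 3, 4 or 5 no gene of the list was called lower, and 1 was without replicate 1 or 2. The marrow of the strains differed for 11 of 30 genes (36.7%, against 21.1%), and for 7 to 14 in the fits without 1 library. Thbd, for thrombomodulin, was at 52.3 ± 10.0 CPM in DBA2 and 16.5 ± 6.22 CPM in FVB BM IMs (n = 3 each, adjusted p = 0.00534 by edgeR), and Ggcx, the carboxylase of the vitamin K-dependent factors, at 3.74 ± 0.794 and 13 ± 2.63 CPM (adjusted p = 0.00236 by edgeR). Serpinb10, F5 and Lrp1 were also higher in DBA2 marrow, and Serpinb1a, Cd47, Plgrkt, Tfpi, Vkorc1 and F2rl3 lower. The change from marrow to tumor differed between the models for 8 of 42 genes in primary tumors (19.0%, against 26.5%) and 9 of 38 in lymph nodes (23.7%, against 15.4%). The change of F5, Lrp1, Thbd and Cd36 was higher for both LN2E1 tissues. Marrow means of Lrp1 were 147 CPM in DBA2 and 87.1 CPM in FVB mice, and those of F5 and Thbd are given above. In primary tumor, lymph node and LN4K1 lung TIMs, F5 had 56.6, 69.3 and 70.5 CPM. Lrp1 had 358, 412 and 385 CPM, and Thbd 42.0, 32.8 and 38.4 CPM. For these 3 genes the models thus differed mainly in marrow.

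**Figure D5:**
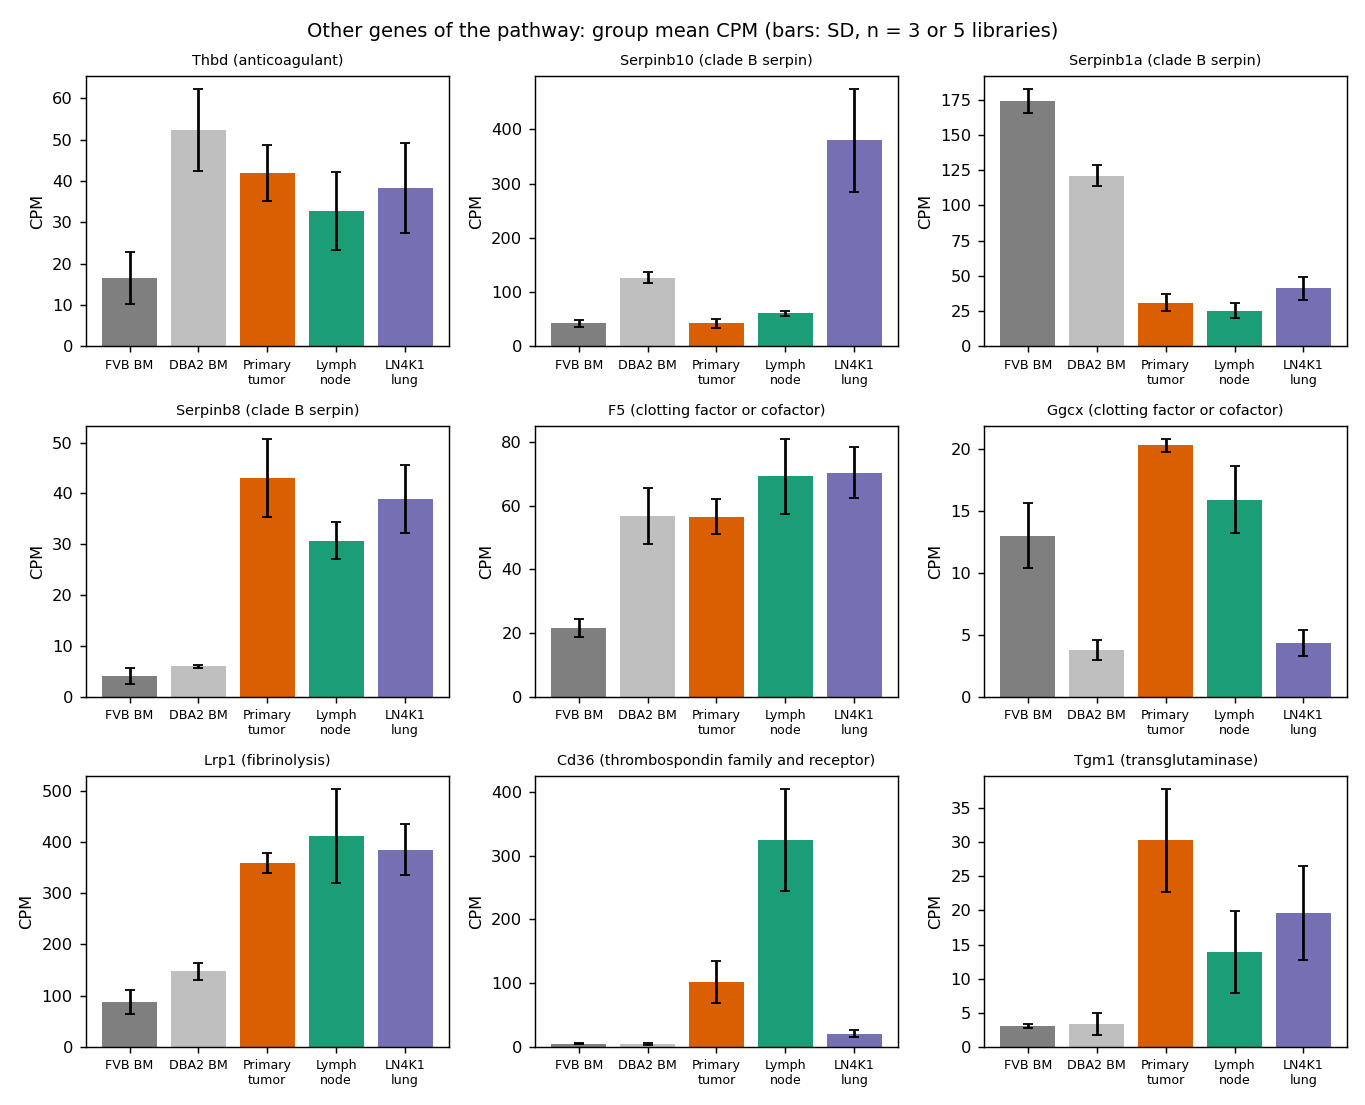
Group mean CPM (vertical axes from 0, bars SD, n = 3 BM IM or 5 TIM libraries) of the 9 other pathway genes picked by the naming rule. Cd36 reached 325 CPM in lymph node TIMs, and Serpinb10 380 CPM in LN4K1 lung TIMs.

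The genes whose log2 CPM followed each member most closely over the 21 libraries were sought among 8016 genes, as a description, since the libraries fall into marrow and tumor clusters. For Tgm2 they were Sdc4 (r = 0.986) and Arg2 (r = 0.985), and over the 15 TIM libraries alone these gave r = 0.967 and 0.831. Thbs1 was followed by Pacs2 (r = 0.966 over 21 and 0.960 over 15 libraries) and Abcc1 (0.933 and 0.969), and Plaur by Fbxo4 (0.970 and 0.919) and Pnp (0.964 and 0.916). For F10 they were Slc7a7 (0.944 and 0.941) and Gmppa (0.919 and 0.935), and for F13a1 Ppp1r21 (0.936 and 0.942) and Sh3gl1 (0.936 and 0.960). In these cases the likeness was close among TIM libraries too. For F10, LN4K1 lung replicate 3 lay at 6.78 in log2 CPM and the other TIM libraries at 7.81 to 8.34. How far the r of F10 rests on this library was not tested. For F3 it rested on the contrast of marrow and tumor, since Gbp6 gave 0.939 over 21 but 0.043 over 15 libraries, and Lpp 0.937 and 0.495. Serpinb2 was similar in this respect, with Ahr (0.877 and 0.533) and Nfil3 (0.869 and 0.566). F7 was followed by Arhgap24 (0.838 and 0.807) and Arfgap3 (0.810 and 0.711), and Plau by Acbd3 (0.902 and 0.946) and Tjap1 (0.867 and 0.893).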

How the data were processed

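RNA of 21 sorted IM samples in 5 groups was sequenced by the authors from SMART-Seq libraries tagged with Nextera XT, without strand. The deposited values are raw read counts per gene symbol: the authors removed adapters (BBDuk), mapped read pairs to mm10 (BBMap), used SAMtools 1.8 and counted with featureCounts 1.5.2 of the Subread package (versions from the submitters' processing notes). Total counts of 80772922 to 101043568 per library set the counting error. The labels gave the groups, and no library was left out.

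From the counts, CPM were computed with TMM factors of all 21 libraries together, and log2 values by adding a prior count of 2. Fits used edgeR 4.0.16 and limma 3.58.1 under R 4.3.3, with the libraries of the compared groups only, the default filter (minimum count 10, minimum total 15), the robust quasi-likelihood test and Benjamini-Hochberg adjustment over all genes tested, after a test on simulated data. The SE is the absolute log2 fold change over the square root of F, which is approximate. For TIMs against BM IMs, DEG thresholds were 0.0001 (adjusted p) and 1 (absolute log2 fold change), and other comparisons used an adjusted p under 0.05.

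The members, the pathway and marker lists and the tests were chosen with earlier results of these data known. All 9 members are named. Of the pathway list, genes are named with values that were DEGs in the same direction in at least 2 comparisons of TIMs with BM IMs, or that passed an adjusted p of 0.05 with an absolute log2 difference above 1 between lymph nodes and primary tumors or between strains, each with a mean log2 CPM above 3. Other names in counts of the list were given after their values were seen. The genes most like a member were the 2 with the highest Pearson r over the 21 libraries. Locations and exon lengths came from GENCODE vM21 for GRCm38, and promoters from RefSeq. Tables and figures used matplotlib 3.10.9, scipy 1.17.1, pandas 2.3.3 and numpy 2.4.6 under Python 3.11.15.

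Alternatives were DESeq2's size factors and, for levels, total counts in place of TMM, a filter of 1 count in total, a filter of 10 counts in every library, all 5 groups in 1 fit, the replicate number as a block, DESeq2 1.42.0 with unshrunken and with shrunken fold changes, and leaving out each library. No pair of libraries held identical values.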

Additional observations from a re-analysis of the deposited data

Results flagged for a closer look

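For 2 of the 27 combinations of a member and a TIM group, a single library stood apart from the other 4 by Dixon's test, which chance gives for about 1 in 20 groups. F10 was at 110 CPM in LN4K1 lung TIM replicate 3, where the other libraries held 225 to 248 CPM, and this library also correlated least with its group. Plau was at 2.09 CPM in lymph node TIM replicate 4, against at most 0.343 CPM in the others. For 4 members an interaction in edgeR's fit called the change from marrow to tumor different between the models. For Thbs1 the term was 3.75 in primary tumors and 2.91 in lymph nodes against LN4K1 lungs. For F3 the fitted terms were 7.98 and 6.90, and both rest on FVB BM IM libraries without a count, so that their size is not a measure of the change. F13a1 had a term of -1.0 and Plaur one of 0.86, both for lymph nodes. The members were chosen with the underlying fold changes known, so that these calls are not independent evidence.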

How the results depend on the processing

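No result changed direction in the sense of a called value turning sign. The number of members called moved by over 1.5 times as follows. In primary tumors, where 2 were called, it was 1 under the filter of 10 counts in every library, which leaves out F3, and 5 with DESeq2, unshrunken and shrunken. In lymph nodes it went from 2 to 4 with all 5 groups in 1 fit and 4 with either DESeq2 setting, and in LN4K1 lungs from 1 to 2 with either. For the interaction of primary tumors it went from 2 to 1 under the filter of 10 counts. Leaving out 1 library gave 2 to 3 members in primary tumors, 1 to 2 in lymph nodes, 0 to 1 in LN4K1 lungs, 3 to 4 for lymph nodes against primary tumors, 0 to 5 between the strains, 2 in every fit for the interaction of primary tumors and 3 to 4 for that of lymph nodes. Where edgeR called 0 members without 1 library, 5 or 6 had an unadjusted p under 0.05 in LN4K1 lungs, and 3 or 4 between the strains. Of all genes, 4098 to 4790 had one in those LN4K1 lung fits, of 13355 to 14121 tested. Between the strains 3583 to 3814 had one, of 13266 to 13310 tested. The cause was not tested. DESeq2 with unshrunken fold changes called 4025, 2419 and 1600 of all genes in the 3 comparisons with marrow and 3074 between lymph nodes and primary tumors, against 1879, 758, 405 and 1578 by edgeR, and the fit of all 5 groups called 1947 and 797 in lymph nodes and LN4K1 lungs and 1595 between the strains, where edgeR's own fit called 2719. Shrinking by DESeq2 was left out for the interactions. Depth limits F3 in marrow, with 0 to 73 counts a library, and Plau in lymph nodes, with 1 to 169.

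Libraries of different groups with the same replicate number did not deviate together (r = -0.154 to 0.084), and no source says that a number marks a shared animal, so that the number does not pair them. With the replicate block, edgeR called 0 members in each of the 3 comparisons with marrow, and 1 for lymph nodes against primary tumors. In those with marrow, 6, 6 and 4 members had an unadjusted p under 0.05 in that edgeR fit. So had 7546 of 14569, 5296 of 13273 and 3398 of 13624 of all genes tested. The block left 2 degrees of freedom in the comparisons with marrow, and it called 2 members between the strains, 2 for the interaction of primary tumors and 3 for that of lymph nodes.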
